A study of Mus musculus with 3 samples.

Results

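A group of 7 genes that mark the early embryo and embryonic stem (ES) cells were followed in 3 mouse cell populations: the developmental pluripotency associated genes Dppa2, Dppa3, Dppa4 and Dppa5a, the RNA-binding genes L1td1 and Lin28a, and the chromatin gene Utf1. Every probe set that the array's annotation assigns to 1 of these symbols and to no other gene was taken, which gave 11 probe sets for 7 genes, of 45037 probe sets and 18193 genes in all. No probe set listed 1 of these genes together with another gene (0 of 932 with several symbols). The populations, each on 1 array and all of the C57BL/6 strain, were ES cells of the B6N-22 line, splenic B cells positive for B220, and splenic CD4 T cells. The ES cells, a single line, were grown with leukemia inhibitory factor on embryonic fibroblast feeder cells whose division had been stopped with mitomycin C, and the sources used here do not say whether feeder cells were taken away before the RNA was made. The lymphocytes were primary cells of mice aged 6 to 8 weeks, sorted with magnetic beads, and the labels state a purity of over 98% but not how many mice were pooled. As each population has a single array, replicate error cannot be given and no test was run on any difference below.

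Members of the group act at the start of development. Dppa2 and Dppa4 are chromatin proteins with a SAP domain that work as a pair at promoters rich in CpG and stand upstream of genes of the cleavage-stage embryo. Dppa3, also called Stella or PGC7, is a maternal protein that shields DNA methylation in the zygote and binds the methylation maintenance factor Uhrf1. Dppa5a carries a KH RNA-binding domain, and L1td1 is an RNA-binding protein descended from a LINE-1 retrotransposon reading frame. Lin28a binds precursors of the let-7 microRNAs and recruits the uridylyl transferases Tut4 and Tut7, after which the exonuclease Dis3l2 removes the precursor. Utf1 is a chromatin-bound protein of pluripotent cells that limits loading of Polycomb repressive complex 2 and brings mRNA decapping factors to chromatin.

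Promoter windows were matched by symbol for 3 of the 7 genes, and they are printed because these genes shared the same high-in-ES pattern. Each window runs from 250 bases before to 50 bases after the annotated start, 5′ to 3′ on the gene's own strand, in RefSeq's table for GRCm38.p6. The L1td1 window is chr4:98726504-98726803 on the plus strand, the Lin28a window chr4:134018767-134019066 on the minus strand, and the Utf1 window chr7:139943606-139943905 on the plus strand. Capitals mark a match to 1 of the 4 motifs searched.
L1td1: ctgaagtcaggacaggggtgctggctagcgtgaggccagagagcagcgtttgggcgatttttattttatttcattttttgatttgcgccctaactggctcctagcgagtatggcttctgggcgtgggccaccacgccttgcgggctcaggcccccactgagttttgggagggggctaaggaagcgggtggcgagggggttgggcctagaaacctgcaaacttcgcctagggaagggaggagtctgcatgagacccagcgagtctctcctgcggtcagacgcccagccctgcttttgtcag
Lin28a: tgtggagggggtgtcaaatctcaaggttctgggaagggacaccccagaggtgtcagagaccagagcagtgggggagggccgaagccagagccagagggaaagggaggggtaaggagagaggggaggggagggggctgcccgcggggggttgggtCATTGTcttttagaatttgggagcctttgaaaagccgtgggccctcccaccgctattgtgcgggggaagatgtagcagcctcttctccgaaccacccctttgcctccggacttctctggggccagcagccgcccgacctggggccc
Utf1: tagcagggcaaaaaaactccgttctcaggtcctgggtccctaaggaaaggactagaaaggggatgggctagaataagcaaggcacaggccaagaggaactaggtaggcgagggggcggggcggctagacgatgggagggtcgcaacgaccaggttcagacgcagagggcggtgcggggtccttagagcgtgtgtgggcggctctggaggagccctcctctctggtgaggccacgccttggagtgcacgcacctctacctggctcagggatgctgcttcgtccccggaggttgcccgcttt

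The motifs, searched on both strands, were the octamer ATGCAAAT bound by Oct4, the SOX motif CATTGT, the Esrrb motif AAGGTCA and the E-box CACGTG. Of the 3 windows, the Lin28a window alone held a match, 1 SOX motif on the plus strand of the gene that begins 96 bases before the start. Among all 32851 windows of 300 bases, 12.6% held the SOX motif, 1.74% the octamer, 4.72% the Esrrb motif and 7.15% the E-box. No match overlapped another. The ratio of observed to expected CpG was 0.615 in the Utf1 window with 17 CpG, 0.559 in the L1td1 window with 14 and 0.351 in the Lin28a window with 10, beside a median of 0.384 over all windows. A match describes these letters and does not show binding.

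The RNAs that Lin28a acts on are shown because the let-7 genes downstream of it are described below; let-7 itself was not measured on these arrays. Of 10 mature let-7 names of the 5′ arm in RefSeq's table for GRCm38.p6, 9 share the seed GAGGUAG at bases 2 to 8, which is in capitals in the 2 mature sequences. In the 2 hairpins, capitals mark the letters GGAG, the motif that the zinc knuckles of Lin28a contact in the loop. GGAG stood in 9 of 11 let-7 hairpins, and between the mature arms in 8 of the 10 hairpins where both arms could be placed. Of all 1005 mouse hairpins in the table, 44.5% held these letters somewhere.
mmu-let-7a-5p: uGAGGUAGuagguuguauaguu
mmu-let-7g-5p: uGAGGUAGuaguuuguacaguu
Mirlet7g hairpin, with the motif: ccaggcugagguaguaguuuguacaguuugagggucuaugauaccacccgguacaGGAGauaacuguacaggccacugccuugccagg
Mirlet7b hairpin, without the motif: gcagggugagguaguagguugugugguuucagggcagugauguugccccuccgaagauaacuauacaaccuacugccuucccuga

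All values are the deposited probe set signals on a linear scale. The column means are those of arrays scaled to a common mean, and each probe set was compared between arrays on that basis. Another scaling shifts the differences of all genes, as given below. Signals of different probe sets are not comparable. The median of all values, a signal of 95.0, was taken as the detection level. A lower signal was raised to it before a fold was formed, so folds involving such a signal are the least the fold can be and carry the words "at least". A gene counted as different when its fold reached 4 and its brighter array exceeded the level. A probe set below the level in both arrays compared has a log2 difference of 0 and gives no reading of the gene. In the ES cell array 6 of 6 ES cell markers were above the level, and in the lymphocyte arrays 0 of 6 were. Their summed signals were 53222 in ES, 156 in B and 130 in T cells. Of 4 B cell markers with a probe set, 4 were above it in B cells, 3 in T cells and 0 in ES cells, with summed signals of 69604, 3581 and 243. Of 4 T cell markers, 4 were above it in T cells, 2 in B cells and 0 in ES cells, with summed signals of 34109, 575 and 74.6. Markers of other cell types also gave signal: 6 of 6 fibroblast markers were above the level in ES cells, 2 in B and 1 in T cells, with sums of 59565, 548 and 401. All 5 macrophage markers were above it in every array, with sums of 3520 in ES, 18522 in B and 44402 in T cells, and of 2 erythroid markers 0 were in any array, with sums of 19.3, 107 and 63.8. The part of feeder cells in the ES cell signals and of other spleen cells in the lymphocyte signals was not tested. In such samples, fewer cells of a type and less RNA per cell cannot be told apart.

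By the probe set with the highest mean, each of the 7 genes had its highest signal in the ES cell array, and 7 of 7 lay 4-fold or more below ES cells in the T cell array and 7 of 7 in the B cell array. Of all measured genes 10.2% did so in T cells (1252 of 12325) and 10.3% in B cells (1289 of 12463). The median log2 difference of the 7 was -5.83 in both comparisons, which rests on a bound, beside -0.11 over all genes for T cells and -0.07 for B cells. The comparisons share the ES cell array. ES cell genes were known to be high in that array when the 7 were chosen, so the counts describe the group and support no further statement.

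**Figure D1:**
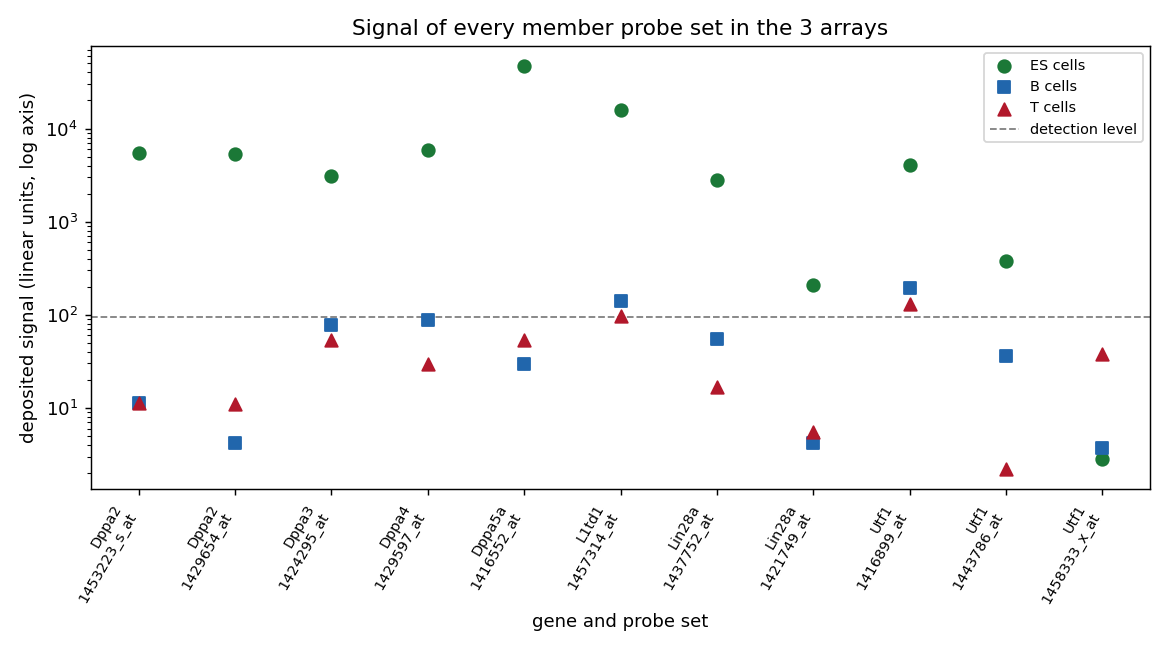
Deposited signal (log axis) of each of the 11 probe sets in ES cells (circles), B cells (squares) and T cells (triangles), 1 array each, so there are no error bars; the dashed line is the detection level of 95.0. In 10 of 11 probe sets the ES cell signal is above the level and above both lymphocyte signals; the exception is the Utf1 probe set at the far right, with 2.8 in ES cells.

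Dppa2 and Dppa4, the paired SAP domain proteins, were both above the detection level in ES cells alone. The Dppa4 probe set had signals of 5847 in ES cells, with 87.5 in B and 29.9 in T cells, so that Dppa4 was at least 61.5-fold lower in both lymphocyte populations. The lymphocyte signals lie below the detection level and have no order. Dppa2 was read by a pair of probe sets that are annotated to the same sequence record. The first gave 5392 in ES cells against 11.2 in B cells and 11.4 in T cells, at least 56.8-fold lower in both. The other gave 5389, 4.2 and 11.1 in the same order, at least 56.7-fold lower. The ES cell signals of the Dppa2 probe sets thus nearly coincided, and neither was detected in a lymphocyte array.

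Dppa3, the maternal methylation factor, had a signal of 3068 in ES, 76.7 in B and 53.3 in T cells. It was at least 32.3-fold lower in both lymphocyte populations, where it was below the detection level. Dppa5a had signals of 46811 in ES cells, with 29.6 in B and 53.8 in T cells. Its bound, at least 493-fold lower in both, was the greatest of the 7; a bound is set by the ES cell signal of its probe set and does not order the genes by their true change. With 16 added to every signal in place of the floor, the log2 difference of Dppa5a was -9.39 for T cells and -10.00 for B cells, and that of Dppa3 -5.48 and -5.06.

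The RNA-binding gene L1td1 and the chromatin gene Utf1 were the members with a signal above the detection level in lymphocytes. L1td1 gave 15783 in ES cells against 139 in B cells and 97.0 in T cells, which is barely above the level. It was 163-fold lower in T cells and 113-fold lower in B cells, with the level exceeded on both sides. Among genes above the level in both arrays, this was the difference ranked 2 of 8971 on the side lower in T cells and 4 of 9013 on the side lower in B cells. Utf1 gave 4032 in ES, 196 in B and 131 in T cells by its brightest probe set. That is 30.7-fold lower in T cells and 20.6-fold lower in B cells, ranked 24 of 8971 and 44 of 9013. These ranks describe single arrays and depend on where the detection level is set. With the level at the 65th percentile, a signal of 244.5, both genes fell below it in both lymphocyte arrays. Their log2 differences from ES cells then became bounds, -6.01 for L1td1 and -4.04 for Utf1 in both comparisons.

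The other Utf1 probe sets were dimmer. One gave 375 in ES cells, with 36 in B and 2.2 in T cells, at least 3.95-fold lower in both lymphocyte populations and so just short of the 4-fold limit. The remaining one, whose name ends in _x_at, the array maker's suffix for probes that may bind other transcripts, gave 2.8, 3.7 and 38.3, below the level in all 3 arrays. It therefore gives no difference. Lin28a was likewise uneven: its brighter probe set gave 2820 in ES cells against 54.4 in B cells and 16.9 in T cells, at least 29.7-fold lower in both. The dimmer one gave 210, 4.2 and 5.5, at least 2.21-fold lower. Both read Lin28a above the level in ES cells and below it in lymphocytes, and the small fold of the dimmer follows from its low ES cell signal. Where every probe set had to reach 4-fold, 5 of 7 genes were counted in each comparison, without Lin28a and Utf1.

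The only error that these arrays allow comes from how far a gene's 2 brightest probe sets disagree. The SD of that difference was divided by the square root of 2, to give the SD of a single probe set. On the log2 scale it was 0.62 for T cells against ES cells and 0.60 for B cells against ES cells. These values rest on 3927 and 3887 genes with both probe sets above the level in both arrays. This SD does not cover the 5 members whose lymphocyte signals lay below the level. By their brightest probe sets, L1td1 and Utf1 differed from ES cells by more than it. That adds no support, because ES cell genes were known to be high in that array when the members were chosen. The SD holds the effect of probes alone, since cultures and animals were not repeated.

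**Figure D2:**
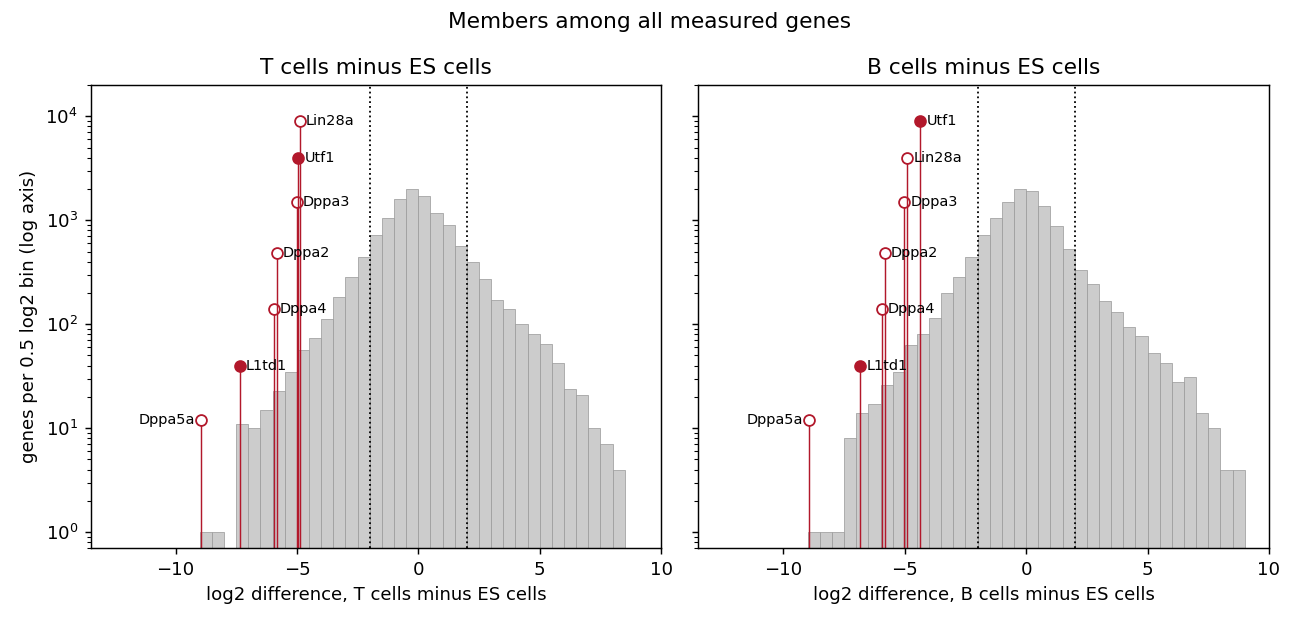
Histogram of the log2 difference from ES cells over all measured genes (12325 for T cells, left; 12463 for B cells, right; log count axis), with the 7 members marked at differing heights for legibility; open circles are lower bounds and filled circles are measured on both sides, and dotted lines mark 4-fold. All 7 lie left of the 4-fold line in both panels, from Dppa5a at -8.94 to Lin28a at -4.89 in T cells and Utf1 at -4.36 in B cells.

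Between T cells and B cells, 2 of the 7 genes could be compared and neither reached 4-fold, where 4.34% of all measured genes did (486 of 11194). The log2 difference of T cells from B cells was -0.52 for L1td1 and -0.58 for Utf1. The SD of a single probe set, found as above, was 0.35 in this comparison (4555 genes). Neither gene is among those, because neither has its 2 brightest probe sets above the level in both arrays. With the level at the 65th percentile both differences were 0, and by the mean of probe sets that of Utf1 was -0.19. No order of T cells and B cells is drawn from them. The other 5 genes were below the detection level in both lymphocyte arrays, so no order of T cells and B cells can be given for them.

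Genes on either side of the members on the chromosome were then examined, taking the 3 nearest protein-coding genes with a probe set on each side in RefSeq's gene order. Of all 36 neighbours, 28 were measured against ES cells in T and 25 in B cells. Of these, 6 and 6 lay 4-fold or more lower, and 5 and 3 as far above, beside 10.8% and 9.85% of all measured genes above. The medians were 0.47 and -0.10. Of 18 neighbours of the 4 Dppa genes, 14 were measured against ES cells in T and 12 in B cells, and 6 and 6 of them lay 4-fold or more lower, beside 10.2% and 10.3% of all measured genes. Of 18 neighbours of L1td1, Lin28a and Utf1, 14 and 13 were measured and 0 lay as far below. On each side of that division 4 neighbours were below the detection level in every array. The members' own neighbours among the 7 are not counted, and neighbouring genes are not independent of each other.

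On chromosome 16, Dppa4 and Dppa2 lie beside each other between Nectin3 and Morc1. Morc1, an ATPase gene of the germ line, gave 3908 in ES, 29.7 in B and 6.7 in T cells, at least 41.1-fold lower in both. Nectin3, an adhesion gene, gave 1538, 1.5 and 8.5, at least 16.2-fold lower. Its 6 probe sets ran from -4.02 to 0 on the log2 scale, where 0 means undetected in both arrays compared. The genes on either side of these 4 were high in T cells and below the level in ES and B cells. Cd96, a receptor of T and NK cells, gave 10.2 in ES cells, with 84.2 in B and 3062 in T cells, with T cells at least 32.2-fold above ES cells. On the other side Trat1, an adaptor of the T cell receptor complex, gave 2.6, 31.2 and 2644, at least 27.8-fold higher. Of all measured genes, 10.8% lay 4-fold or more above ES cells in T cells and 9.85% in B cells.

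On chromosome 6, Dppa3 lies between Gdf3 and Nanog. Gdf3, a growth factor gene of the TGF-beta family, gave 4342 in ES cells against 44.9 in B cells and 33.9 in T cells, at least 45.7-fold lower in both. Nanog, a core pluripotency factor, gave 9384, 7.5 and 4.6, at least 98.8-fold lower. Slc2a3, a glucose transporter gene and the next along, was detected in all 3 arrays, with 23401, 2835 and 3681, or 6.36-fold lower in T cells and 8.26-fold in B cells, but 1 of its 4 probe sets had a log2 difference of -0.85 in both. Foxj2 beyond it went the other way, 5.15-fold higher in T cells and 6.91-fold in B cells, and was undetected by its other probe set. Apobec1, the RNA-editing deaminase gene on the far side of Gdf3, was 7.80-fold higher in B cells and 3.52-fold in T cells.

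Dppa5a lies on chromosome 9 beside Ooep, an oocyte gene that encodes a related KH-like protein. Ooep gave 6553 in ES, 82.1 in B and 41.1 in T cells, at least 69.0-fold lower in both. On the other side of Dppa5a, Gsta2, Omt2b and Omt2a were below the detection level in all 3 arrays. Lin28a, on chromosome 4, had a neighbour with the opposite pattern: Cd52, a surface glycoprotein gene of lymphocytes that stands 2 genes away, gave 61.6 in ES cells, with 35603 in B and 25580 in T cells. B cells lay at least 375-fold and T cells at least 269-fold above ES cells. Next to L1td1, Patj had a log2 difference of 1.88 in T cells and Kank4 was above the level in ES cells alone, and next to Utf1, Kndc1 and Spef1l were undetected in all arrays.

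**Figure D3:**
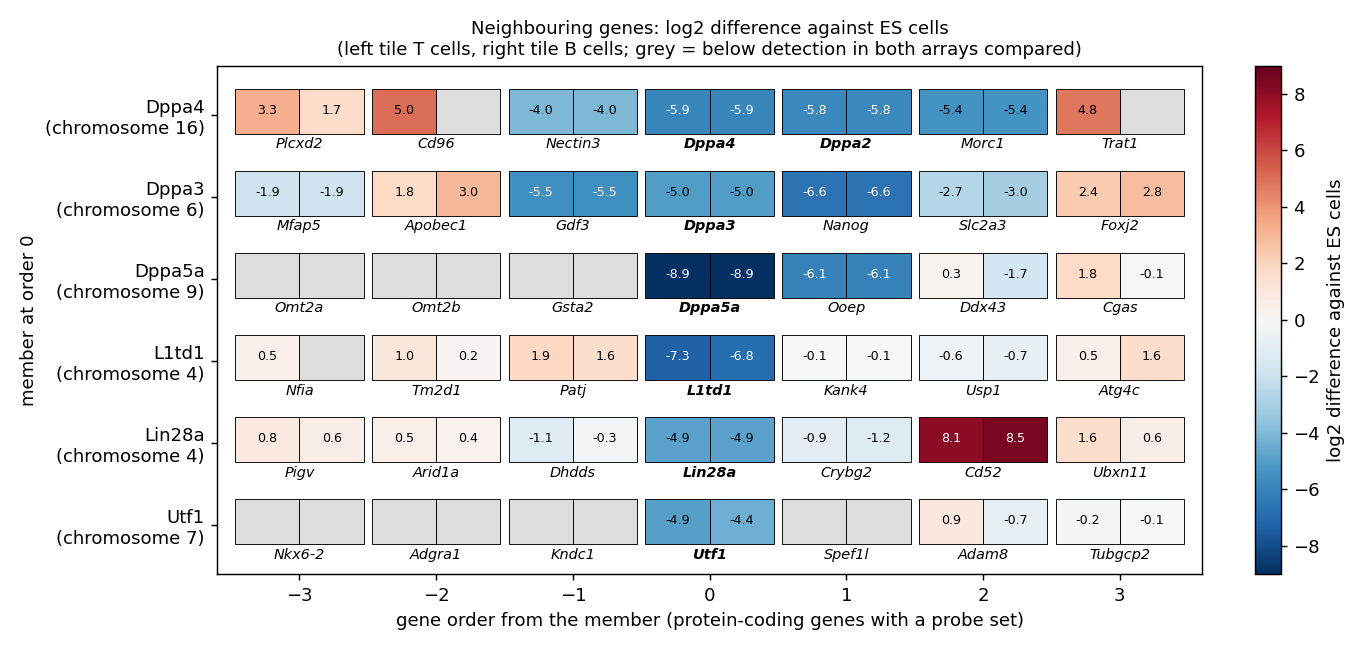
Log2 difference from ES cells of the 3 nearest genes on each side of each member, in gene order and not to distance; left tiles are T cells, right tiles are B cells, blue is lower and red is higher than in ES cells, grey is below detection in both arrays compared, and names of the members are bold. Neighbours lower by 4-fold or more lie beside the members on chromosomes 16, 6 and 9, and none do beside L1td1, Lin28a and Utf1, where Cd52 is at 8.07 in T cells and 8.55 in B cells.

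Downstream of Dppa2 and Dppa4, the listed genes of the 2-cell embryo with a probe set were hardly seen in the ES cell array. Of 20 listed genes 9 had a single-symbol probe set, and 3 were measured against T cells and 2 against B cells, of which 0 reached 4-fold. The other 11 entries, among them the listed Zscan4 genes, had no single-symbol probe set and were not analysed. Whether probe sets with several symbols read them was not examined. Duxf3, the transcription factor gene that opens this programme, gave 48.8 in ES cells against 29.1 in B cells and 6.4 in T cells, below the level in each. Usp17la, a deubiquitinase gene, was the listed gene above the level in ES cells, with 164, 30.0 and 30.8, at least 1.73-fold lower in both lymphocyte populations. Arg2, an arginase gene, and Tcstv3 were below the level in ES cells and at least 1.54-fold and 1.35-fold higher in T cells. The median was 0.43 over 3 genes in T cells and -0.21 over 2 in B cells.

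Among factors that process let-7 with Lin28a, most were present in all 3 populations. Of 17 measured genes, 2 lay 4-fold or more below ES cells in T and 2 in B cells, and 0 and 1 as far above, with medians of 0.04 and -0.23. The lower counts, 11.8% in each, were near the 10.2% and 10.3% of all measured genes. Trim71, a let-7 target and RNA-binding ubiquitin ligase gene, gave 5419 in ES, 6.3 in B and 10.1 in T cells, at least 57.0-fold lower in both. Drosha, the nuclear nuclease gene of microRNA processing, gave 9395, 996 and 1856, or 5.06-fold lower in T cells and 9.43-fold in B cells. Another of its 3 probe sets was undetected in the arrays compared and gave no difference. Of the partners of Lin28a in uridylation, by the probe set of highest mean, Tut4 reached 4-fold higher in B cells. The other 3 values lay within 4-fold by that probe set. Tut4 gave 870, 4736 and 2336, 5.45-fold higher in B cells and 2.69-fold in T cells. Its 5 probe sets ran from 1.43 to 2.99 on the log2 scale in T cells and from 2.45 to 4.35 in B cells. Tut7 gave 922, 3448 and 2682, with log2 differences of 1.90 in B cells and 1.54 in T cells. Lin28b, the paralog of Lin28a, was below the level in all arrays, with 23.9, 0.4 and 0.6.

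Genes listed as let-7 targets were in part low in lymphocytes. Of 16 measured, 6 lay 4-fold or more below ES cells in T and 6 in B cells, beside 10.2% and 10.3% of all measured genes. As far above lay 1 and 0, with medians of -0.72 and -1.14. With every probe set required to differ, 2 were counted lower in each. Igf2bp1, an oncofetal mRNA-binding gene, gave 5236 in ES cells, with 16.9 in B and 13.4 in T cells, at least 55.1-fold lower in both. Mycn gave 3330, 5.2 and 4.2, at least 35.1-fold lower, but 1 of its 3 probe sets had a log2 difference of 1.18 in B cells. Hmga2, an architectural chromatin gene, gave 3908, 136 and 162, 24.1-fold lower in T cells and 28.8-fold in B cells, with probe sets from -5.34 to -1.25. Nr6a1, an orphan nuclear receptor gene, gave 1543, 71.0 and 65.9, at least 16.2-fold lower in both, with another probe set undetected in the arrays compared. Ccnd2, a G1 cyclin gene, stood against the list, 4.57-fold higher in T cells and 1.34-fold in B cells.

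Other RNA-binding genes divided by population. Of 23 measured genes, 7 lay 4-fold or more below and 6 as far above ES cells in T cells, and 7 and 6 in B cells. Over all measured genes, 10.2% lay as far below and 10.8% as far above in T cells, and 10.3% and 9.85% in B cells. The medians of the list were -0.44 and -0.61. With every probe set required to differ, 4 were counted lower in each. On the ES cell side, besides Trim71 and Igf2bp1, Rbpms gave 1983, 122 and 23.4 in ES, B and T cells, at least 20.9-fold lower in T cells and 16.3-fold in B cells. On the lymphocyte side, Zfp36, which promotes decay of mRNAs with AU-rich elements, gave 393 in ES cells against 8858 in B cells and 7312 in T cells, 18.6-fold higher in T cells and 22.6-fold in B cells. Celf2 was 17.2-fold and 16.3-fold higher in T and B cells, Mbnl3 at least 14.6-fold and 17.0-fold, and Mbnl1 14.0-fold in T cells with a log2 difference of 3.32 in B cells. A Celf2 probe set was undetected in ES and T cells. For Mbnl3 and Mbnl1 the least changed probe set in T cells gave 0.58 and 0.11 on the log2 scale. Zfp36l1 was 4.47-fold and 6.54-fold higher, and Zfp36l2 6.13-fold and 5.67-fold, the latter with a probe set undetected in the arrays compared.

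Near Dppa5a in function, the list of Khdc1, Ooep and maternal complex genes had 5 measured members. Of these, 3 lay 4-fold or more below ES cells in T and 3 in B cells, beside 10.2% and 10.3% of all measured genes. As far above lay 0, with medians of -2.10 and -2.12. When the 65th percentile set the detection level, 1 was counted lower in each. The values of Ooep are given above. Nlrp4f gave 631 in ES, 40.5 in B and 0.9 in T cells, at least 6.64-fold lower in both. Khdc3, a KH-like gene of the maternal complex, gave 498, 115 and 134, 3.71-fold lower in T cells and 4.34-fold in B cells. Zbed3 was at least 4.29-fold lower in T cells and 1.53-fold in B cells, with a probe set undetected in ES and T cells.

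Around Dppa3, the DNA methylation genes were of mixed size. Of 13 measured, 5 lay 4-fold or more below ES cells in T and 5 in B cells, beside 10.2% and 10.3% of all measured genes. As far above lay 1 and 0, with medians of -1.79 and -1.61. Uhrf1, which Dppa3 binds, gave 6025 in ES cells, with 657 in B and 609 in T cells, 9.89-fold lower in T cells and 9.17-fold in B cells. Dnmt3l, the cofactor of de novo methylation, gave 7674, 57.5 and 66.6, at least 80.8-fold lower in both. Dnmt3b, a de novo methyltransferase gene, was 12.9-fold and 13.9-fold lower in T and B cells. Tet1, which oxidises 5-methylcytosine, was 12.4-fold lower in T cells and at least 71.7-fold in B cells, with a probe set at -0.73 in both. Dnmt3a stood against the list, 5.32-fold higher in T cells and 3.37-fold in B cells, although one of its 5 probe sets gave -1.72 in T cells.

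Germ line genes, with which Dppa3 and Dppa5a share their sites of expression, were low and often near the detection level. Of 19 measured against T cells 7 were at least 4-fold lower, and of 18 against B cells 7, beside 10.2% and 10.3% of all measured genes. As far above lay 0 in either, with medians of -1.34 and -1.77. Besides Morc1, Tex19.1 gave 1648 in ES cells against 26.8 in B cells and 30.8 in T cells, at least 17.3-fold lower in both. Tfap2c, a transcription factor gene of primordial germ cells, gave 1533, 11.8 and 9.0, at least 16.1-fold lower. Rnf17, a Tudor protein gene of germ cells, gave 1303, 48.2 and 27.0, at least 13.7-fold lower, with a probe set at -0.97. The floor weighed on these counts: with 16 added in place of it, 13 and 12 were counted lower in T and B cells, and with the level at the 65th percentile 4 in each.

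Utf1's partners were mostly within 4-fold of ES cells. Of 13 measured genes of Polycomb repressive complex 2, decapping and the Cdkn2a locus, 2 lay 4-fold or more below ES cells in T cells and 1 in B cells, with 0 as far above and medians of -0.94 and -0.76. The lower counts, 15.4% and 7.69%, were near the 10.2% and 10.3% of all measured genes. Jarid2, a PRC2 accessory subunit gene, gave 9231 in ES, 2981 in B and 1873 in T cells, 4.93-fold lower in T cells and 3.10-fold in B cells. Cdkn2a, a cell cycle inhibitor locus, gave 395, 4.5 and 27.8, at least 4.16-fold lower in both. The PRC2 subunit gene Mtf2 had log2 differences of -1.95 and -1.62 in T and B cells, and the methyltransferase gene Ezh2 of -1.30 and -1.72. When the 65th percentile set the level, 1 gene was counted lower in T cells and 0 in B cells.

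Pluripotency factors had the profile of the 7 genes most often. Of 18 measured, 17 lay 4-fold or more below ES cells in T and 15 in B cells, beside 10.2% and 10.3% of all measured genes. As far above lay 0, with medians of -4.85 in both that rest on bounds. With every probe set required to differ, 11 and 9 were counted lower. Tdgf1 was at least 165-fold lower in both lymphocyte populations, Pou5f1 at least 163-fold, Nanog at least 98.8-fold and Sall4 at least 88.5-fold. Klf2, a factor of both ES cells and resting lymphocytes, was the listed gene not lower in either, with log2 differences of 1.16 and 1.92 in T and B cells.

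**Figure D4:**
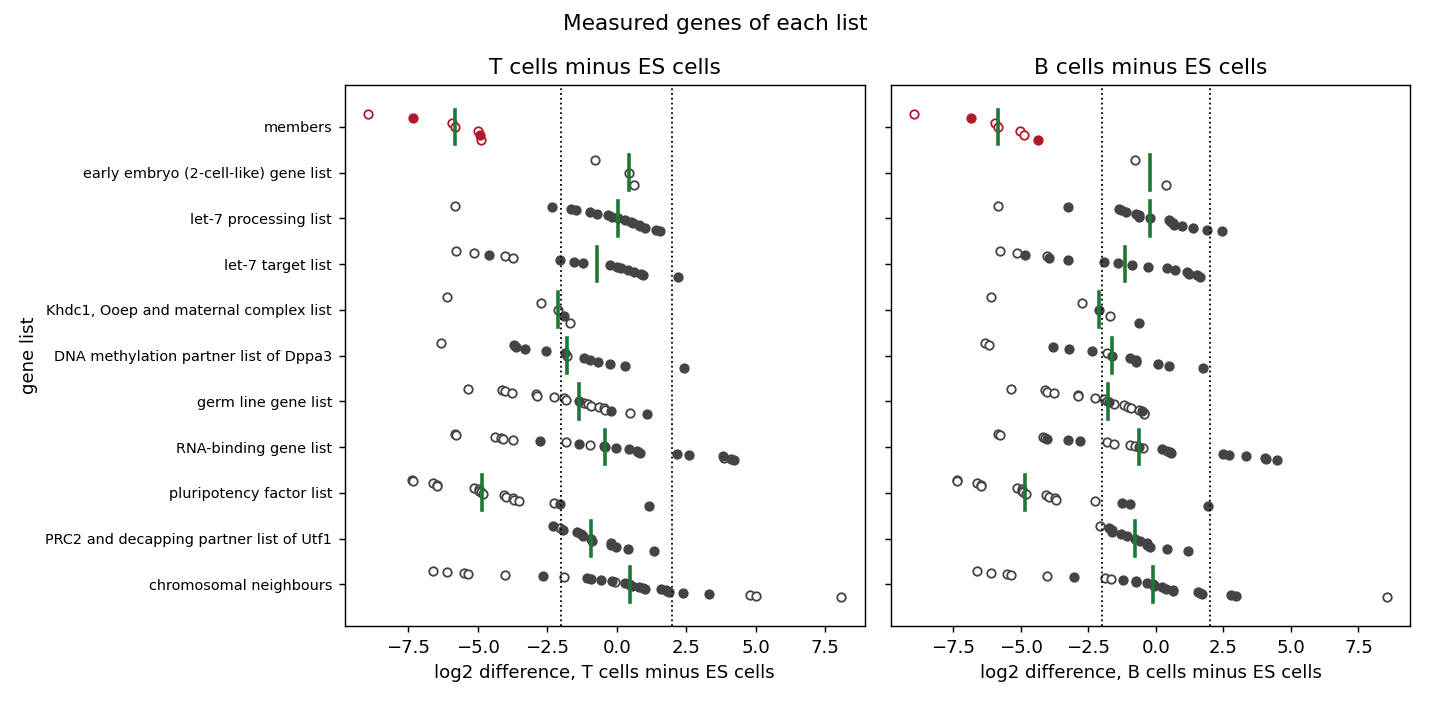
Log2 difference from ES cells of every measured gene of the members and of each list, T cells on the left and B cells on the right; open circles are bounds, filled circles are measured on both sides, green bars are medians and dotted lines mark 4-fold. The members and the pluripotency factors lie mostly left of -2, with medians of -5.83 and -4.85, while the let-7 processing genes centre near 0 and the RNA-binding genes spread to both sides.

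The genes whose pattern was most like each member's were found by the distance between their log2 differences from ES cells in T and B cells, with 16 added to every signal, over 3 arrays and 10967 genes above the level in ES cells. Dppa5a was nearest to Bex1 (distance 0.19), then Enah and Gja1. Dppa2 was nearest to Ccn2 (0.04), Rps6ka6 and Trh, and Dppa4 to Ndn (0.15), Ooep and Rps4l. Dppa3 was nearest to Tpm2 (0.07), Lgr4 and 2210409E12Rik, and L1td1 to Peg3 (0.07), Col5a2 and Trap1a. Lin28a was nearest to Calcoco2 (0.08), Zfp428 and Cav1, and Utf1 to Neo1 (0.14), Rnf17 and Mest. Most signals of the members in lymphocytes were below the detection level, so these distances also reflect signals that have no order. The fibroblast markers too were highest in the ES cell array, and whether the nearest genes read ES cells or feeder cells was not tested.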

How the data were processed

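Total RNA was extracted with Trizol, labelled with biotin with the GeneChip 3' IVT Express Kit and hybridised to 1 array per population, per the labels' protocols. The authors deposited intensity values per probe set on a linear scale, made with Affymetrix Expression Console per the submitters' processing notes; which version and which summarization method is not stated in the sources used here. After trimming 2% at each end, column means were 497 to 498, as in arrays scaled to a common mean, and their medians 88.8 to 102. Such scaling hides any general change in mRNA per cell, and the number of arrays limits the precision.

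Probe sets were named by GEO's platform annotation (34945 with 1 symbol, 932 with several, 9160 with none listed), with symbols checked by Entrez ID in a RefSeq table of GRCm38.p6 (34741 found, 0 changed). The probe set of highest mean stood for its gene. Values below 95.0, the 50th percentile, were raised to it before log2. Computation used Python 3.11.15, numpy 2.4.6 and pandas 2.3.3, tested on simulated data. The 9 gene lists and the neighbours, with up to 4 genes of greatest difference named per list and any that went 4-fold against its list, and the members were chosen with earlier results of these data known. Duxf3, Lin28b and Klf2 were named after their values were seen. From the let-7 list 4 of 20 entries, and from the others 19 in all, had no single-symbol probe set and are not analysed here. Protein sequences were not used here. The alternatives tried were scaling to the 75th percentile, quantile normalization, 16 added with no floor, a detection level at the 65th percentile, the mean of probe sets, every probe set required to differ, and 2-fold for 4-fold.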

Additional observations from a re-analysis of the deposited data

How the results depend on the processing

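The 7 alternatives kept 7 of 7 members at least 4-fold lower (2-fold where that was the limit) in T cells and in B cells, except that requiring every probe set to differ left 5 in each, because Utf1 has a probe set below detection in all arrays and Lin28a a dim one. Of 96 alternative values of single members 30 moved by more than the SD of a single probe set, and 0 reversed. For all genes, the detection level at the 65th percentile gave 784 lower in T cells and 799 in B cells, every probe set required gave 664 and 679 (and 292 apart between T and B cells), and 2-fold gave 3041 and 3063 (and 1702 apart). By list, counts lower in T and B cells were as follows. With every probe set required, let-7 processing had 1 and 1, let-7 targets 2 and 2, RNA-binding genes 4 and 4, and pluripotency factors 11 and 9. With the 65th percentile, the maternal complex list had 1 and 1, germ line genes 4 and 4, and the partners of Utf1 1 and 0. With 2-fold, let-7 processing had 4 and 5, germ line genes 12 and 13, the partners of Utf1 6 and 6, and in T cells the maternal complex list 5 and the methylation list 8. With 16 added, germ line genes had 13 and 12, and RNA-binding genes 11 in B cells. With the mean of probe sets, let-7 processing had 1 in T cells. The partners of Utf1 had 2 in B cells both with that mean and with scaling to the 75th percentile. The latter moved the all-gene median to -0.42 and -0.37 for T and B cells, and the percentage of higher among counted genes to 38.6% in place of 51.5% in T cells and 37.4% in place of 48.8% in B cells; quantile normalization gave medians of -0.26 and -0.22. No paired analysis was possible because each group has 1 array. Signals below 95.0 limit what can be said of Dppa2, Dppa3, Dppa4, Dppa5a and Lin28a in lymphocytes to a bound. With the level at the 65th percentile, the same holds for L1td1 and Utf1.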
